A study of Homo sapiens with 7 samples.

Results

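SOX2 silencing in KYSE140 cells was examined by RNA-seq, as 1 library of cells with an shRNA against SOX2 (shSOX2) set against 1 library of cells with a non-targeting scramble shRNA. KYSE140 is an established line of esophageal squamous cell carcinoma. These are 2 of the 7 libraries of the series, which also holds KYSE140 cells with an shRNA against TP63 (shTP63) and TE5 cells, another esophageal squamous line, with scramble, TP63, SOX2 or CCAT1 shRNA. No other allele or agent is named for any group, and the labels do not say whether the silenced cells were a pool or a clone. The TE5 library with CCAT1 shRNA was not used here. Of 56234 genes with an annotated transcript, the 13861 genes with at least 100 estimated counts in the scramble or the shSOX2 library of KYSE140 were taken as measured. Values are normalized counts, which are estimated counts summed over the transcripts of a gene and scaled between libraries, and the log2 fold change is that of shSOX2 over scramble with 1 added to both. A gene is said to have fallen when this change was under -1 (less than 50% of scramble) and to have risen when it was over 1 (more than 2-fold). With 1 library a side no difference has a replicate check and no p-value was computed. The 95% intervals cover counting error only.

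SOX2 is a transcription factor of stem and progenitor cells. In the esophagus it marks the proliferating basal layer of the stratified squamous epithelium, where TP63 is expressed as well, and the SOX2 locus is often amplified in squamous cancers. Basal cells that leave this layer lose KRT5 and KRT14, take up other keratins, strengthen their desmosomes and make the precursors of the cornified envelope, a protein shell that transglutaminases cross-link under the plasma membrane. Sterol and fatty acid synthesis, which comes up below, is switched on as a block by the SREBP transcription factors when a cell is short of sterols.

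The libraries held 68532611 (scramble), 81695532 (shSOX2) and 97759688 (shTP63) estimated counts. Per the labels, the scramble library was sequenced in lane 2 of the flow cell and the shSOX2 and shTP63 libraries in lane 3, so the lane and the silencing cannot be told apart in the comparison with scramble. The shTP63 level is therefore given for most of the genes described at length, and a within-lane value is that of shSOX2 over shTP63. The label of the cells held: all 12 squamous markers, TP63, KRT5 and DSG3 among them, had between 11201 and 966000 normalized counts in scramble. Of 16 leukocyte, endothelial and fibroblast markers, 15 were matched to a gene. Summed over the lists, leukocyte markers had 115 normalized counts in scramble and 84 in shSOX2, endothelial markers 415 in both, and fibroblast markers 5986 and 8295, most of them from COL1A1.

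SOX2 (ENSG00000181449, hg19 chr3:181429713-181432224, plus strand) had 28022 normalized counts in scramble, 20900 in shSOX2 and 28745 in shTP63. The silenced library was the lowest, at 74.6% of scramble, and the log2 fold change was -0.42 with a 95% interval of -0.45 to -0.39. Within the lane it was -0.46. SOX2 itself was thus not among the genes that fell. In TE5 cells the same gene went from 11774 to 4621, a log2 fold change of -1.35. SOX2-OT, a long non-coding RNA whose span holds SOX2 in an intron on the same strand, had 1693, 771 and 2170 normalized counts in the same order of KYSE140 libraries. It fell, by 1.13 on the log2 scale, and in TE5 it went from 736 to 320. No other member of the SOX family passed the threshold among 10 measured. The nearest were SOX6 (266 to 421, log2 fold change 0.66) and SOX15 (1811 to 2776, 0.62).

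Upon SOX2 silencing 356 genes fell, which is 2.57% of those measured, and 308 rose, 2.22%. The median log2 fold change of all measured genes was 0.01, and 80.0% of them lay within 0.5 of 0. Protein-coding genes made up 304 of the fallen and 251 of the risen. The calls gathered among genes of low counts, as the plot of fold change against level shows. With the genes cut into 10 bins of equal size by level, the lowest bin held 102 of the fallen and 146 of the risen, and the highest bin 22 and 7. Among the 9284 genes with at least 1000 counts, 149 fell and 73 rose. Against shTP63, in the same lane, 597 genes fell and 545 rose. Of the 356 fallen genes 205 (57.6%) were also past the threshold within the lane, and of the 308 risen genes 176 (57.1%). Both comparisons use the same shSOX2 library, so this overlap is not a separate check of the calls.

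**Figure D1:**
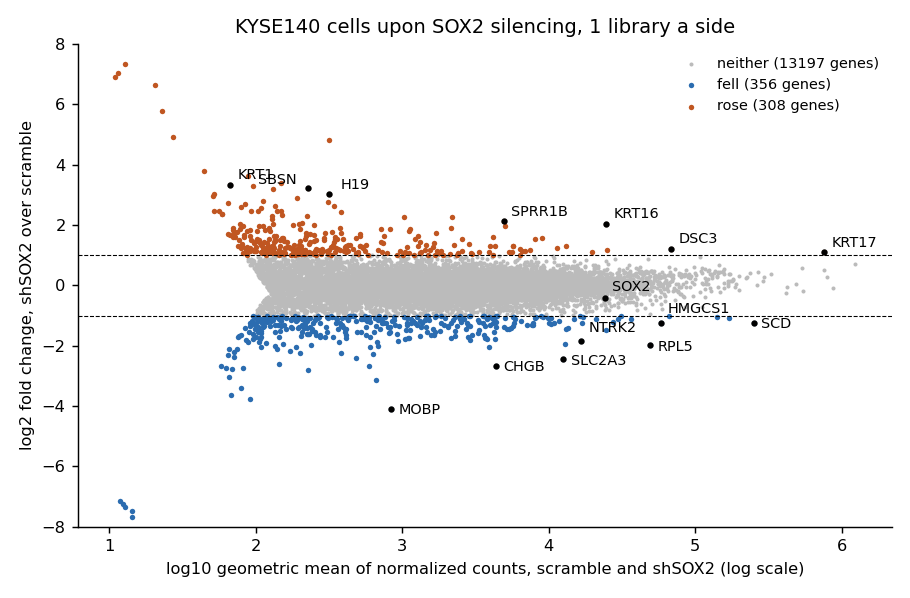
Log2 fold change of shSOX2 over scramble (y axis) against the log10 of the geometric mean of the normalized counts (x axis) for 13861 genes measured in KYSE140 cells, 1 point a gene. Blue points fell (356), orange points rose (308), dashed lines mark -1 and 1 and black points are named genes. The points fan out toward low counts, and SOX2 lies between the dashed lines at -0.42.

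Among genes with at least 1000 counts, some of those that moved most are given here by function, and some of the others further below. MOBP, a myelin protein gene, had 3449 normalized counts in scramble, 203 in shSOX2 and 2610 in shTP63. It was 17.0-fold lower than in scramble (log2 fold change -4.08, interval -4.31 to -3.87). CHGB, which encodes chromogranin B, a protein of secretory granules, went from 11003 to 1729, with 10738 in shTP63. SLC2A3, which encodes the glucose transporter GLUT3, went from 29459 to 5374, with 100805 in shTP63. Its silenced library was the lowest and its shTP63 library the highest of the line. RPL5, a protein of the large ribosomal subunit, went from 97581 to 24753, with 106488 in shTP63. On the other side, genes of the stratified epithelium were among the large increases. Larger ones, such as that of ALYREF, are given below. KRT16, the keratin of activated suprabasal cells, had 12207 normalized counts in scramble, 50137 in shSOX2 and 8379 in shTP63. SPRR1B, a small proline-rich precursor of the cornified envelope, had 2362, 10375 and 2006, and LYPD3, a surface protein of suprabasal keratinocytes, had 2532, 9921 and 3049. In these 3 genes shSOX2 was the highest library of the line, and the log2 fold change of shTP63 over scramble was -0.54, -0.24 and 0.27 in the same order.

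Genes of the cornified envelope and of terminal differentiation formed the group with the most risen members. Of 25 measured, 13 rose and 1 fell, with a median log2 fold change of 1.17 against 0.01 over all genes. The median was 0.68 within the lane, and 0.75 over scramble when TPM was summed to genes in place of counts. SBSN (suprabasin, chr19:36014269-36019253) had 73 normalized counts in scramble, 698 in shSOX2 and 75 in shTP63, and was 9.52-fold higher than in scramble. IVL (involucrin, an early envelope precursor, chr1:152881022-152884362) had 17, 150 and 14. TMPRSS11E, a transmembrane serine protease, had 63, 346 and 117. For all 3 the other libraries lay well under the silenced one. TGM1, the membrane-bound transglutaminase that builds the envelope, went from 2730 to 6704, and KRTDAP, a secreted keratinocyte peptide, from 1034 to 2518, and neither was raised in shTP63 (2090 and 682). CALML5 and SPRR3 rose from low counts, 140 to 445 and 124 to 385. LORICRIN, the major precursor of late cornification, was the member that fell, from 191 to 84, with 77 in shTP63. FLG (filaggrin) went from 213 to 324, which did not pass the threshold. The silenced library was the highest of the line for 18 of the 25 genes. TGM3 also rose, but 96.3% of its sequence words are shared with other genes, so its counts are uncertain.

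Keratins of stratified epithelia rose in 5 of 13 measured genes, and none fell. The median log2 fold change was 0.78. KRT1, the keratin of differentiating epidermis, had 20 normalized counts in scramble, 211 in shSOX2 and 52 in shTP63 (10.6-fold over scramble). KRT75 went from 45 to 147. KRT17 went from 517103 to 1109408, with 325509 in shTP63, and the interval of its log2 fold change was 1.10 to 1.11. KRT6B rose as well, with 54.9% of its words shared, and is uncertain. The basal pair did not go down: KRT5 had 966000, 1592658 and 583792 normalized counts (log2 fold change 0.72) and KRT14 77857, 149212 and 23689 (0.94). KRT6A stayed close to scramble, with 476381 and 495688. KRT10, the partner of KRT1, had 2110 and 2529. As shTP63 was under scramble for most of these genes, the within-lane values were larger, with a median of 1.77 and 9 genes past 1.

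Desmosomes are the junctions that hold keratin filaments of neighbouring cells together. Of 26 genes of desmosomes and cell junctions, 5 rose and 1 fell, with a median of 0.46. All of the risen genes encode desmosomal cadherins. DSG1, the desmoglein of upper layers, had 137 normalized counts in scramble, 854 in shSOX2 and 144 in shTP63. DSC3 had 44966, 103852 and 26589, and DSG3 had 16519, 37464 and 14089. DSC1 went from 169 to 394 and DSC2 from 7368 to 17397, though DSC2 was also high in shTP63 (12549) and its within-lane value was 0.47. The plaque genes DSP (114856 to 182847) and JUP (130050 to 182468) did not pass the threshold. F11R, which encodes a tight junction protein, fell from 30836 to 14329, with 26185 in shTP63. Among 23 genes of hemidesmosomes, laminins and integrins 21 had a log2 fold change above 0, with a median of 0.37. LAMA3 and LAMB3, which encode laminin chains, were at 0.54 and 0.50 and did not pass the threshold.

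Transcription factors of squamous cells moved little. Of 28 measured, 2 rose and none fell. ZNF750, a driver of terminal epidermal differentiation, had 1233 normalized counts in scramble, 2617 in shSOX2 and 681 in shTP63, and EHF, an epithelial ETS factor, had 156, 325 and 199. TP63 had 46905 in scramble and 57544 in shSOX2 (log2 fold change 0.29), against 12023 in shTP63. FOXN1 (1147 to 2135) and NKX2-1 (217 to 410) stayed under the threshold.

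Proteins that accompany differentiation or wounding followed. Of 12 serpins and kallikreins 5 rose and none fell, led by SERPINB2, a protease inhibitor of differentiating keratinocytes (57 to 285, with 110 in shTP63), and KLK5, a protease of epidermal shedding (52 to 209, with 22). Of 23 cytokines and NF-kB targets 6 rose and none fell: IL32, IL1RN, IL18, IL1A, RELB and IL6R. RELB was at 0.63 within the lane. IL1RN, the secreted antagonist of the IL-1 receptor, had 1004 normalized counts in scramble, 2697 in shSOX2 and 829 in shTP63, and IL6R had 3796, 8198 and 2138. Of 20 proteases and members of the urokinase system 4 rose, among them MMP13 (44 to 263, with 120 in shTP63) and MMP10 (372 to 1356, with 286), and HTRA1 fell (4032 to 2014, with 1910). Among 20 collagens COL5A3, COL12A1, COL5A1 and COL16A1 rose and COL15A1 fell (355 to 58). TNC, which encodes the matrix protein tenascin C, had 5170, 15463 and 3057 normalized counts, and S100A14 had 2404, 7260 and 1534. Interferon-stimulated genes rose in 6 of 31, all of them from 816 normalized counts or fewer in scramble, for instance IFIT3 (126 to 371, 203 in shTP63), and within the lane 2 of them passed. The median of this list over scramble was 0.43 in shSOX2 and 0.41 in shTP63, and it was 0.05 within the lane. In TE5 upon SOX2 silencing the median was -0.5, and 2 of 43 measured genes fell and none rose.

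**Figure D2:**
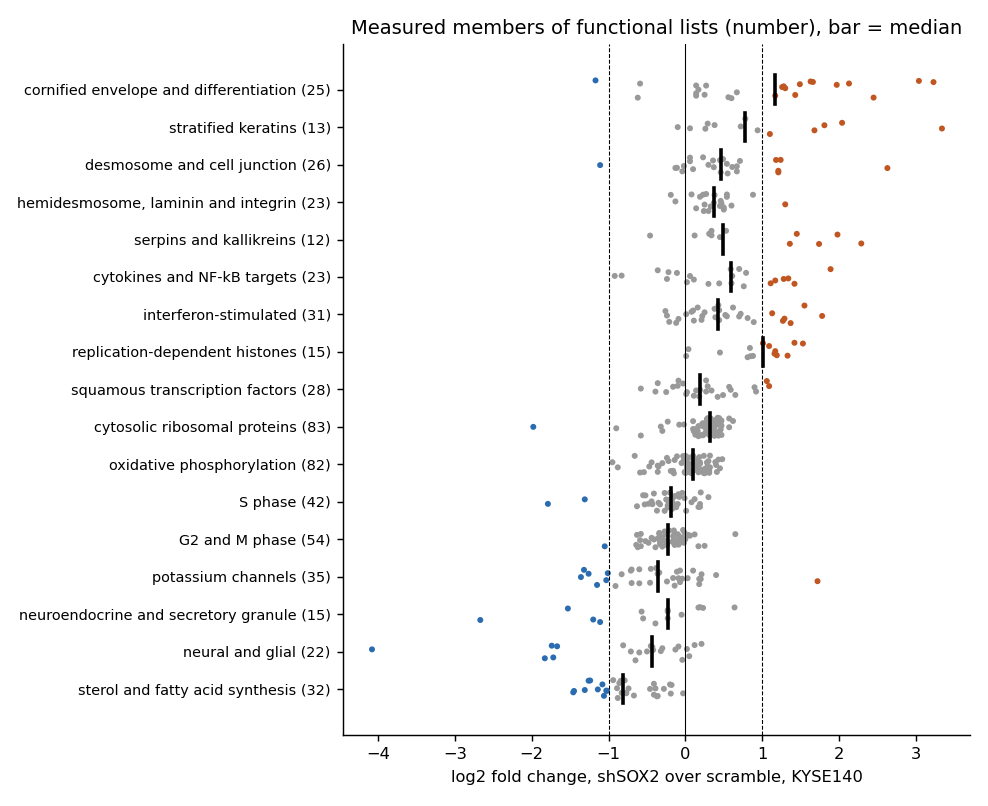
Log2 fold change of shSOX2 over scramble in KYSE140 cells (x axis) for the measured members of 17 functional lists (rows, with the number of measured genes). Points are genes (blue fell, orange rose, grey neither), black bars are medians and dashed lines mark -1 and 1. The cornified envelope median lies at 1.17 and the sterol synthesis median at -0.81, where all 32 genes are below 0.

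Sterol and fatty acid synthesis was lower as a whole. All 32 measured genes had a log2 fold change below 0, 10 fell and none rose, and the median was -0.81. HMGCS1, HMG-CoA synthase of the mevalonate pathway (chr5:43287572-43313614), had 89956 normalized counts in scramble, 37649 in shSOX2 and 91571 in shTP63. The silenced library alone was low, at 41.9% of scramble. MSMO1, a sterol demethylation enzyme, had 12306, 4975 and 11663, and HSD17B7, which acts at a later step of cholesterol synthesis, had 2668, 972 and 2551. DHCR7, which makes cholesterol from 7-dehydrocholesterol, had 245595, 116407 and 219185. These 4 were near scramble in shTP63. MVD, mevalonate diphosphate decarboxylase, had 21874, 7935 and 14141, and SCD, the stearoyl-CoA desaturase, had 389000, 164320 and 232159, so here shTP63 lay between the other 2. ACAT2, SQLE, FDFT1 and IDI1 fell as well, by 1.02 to 1.14 on the log2 scale, and their within-lane values were -0.79, -0.76, -0.44 and -0.73. FASN (68344 to 35637) did not pass the threshold, and the regulators SREBF1 and SREBF2 were at -0.19 and -0.20. The silenced library was the lowest of the line for 25 of the 32 genes. Within the lane the median was -0.54 and 4 genes fell.

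Genes of neurons, glia and secretory granules had members that fell. Of 22 measured neural and glial genes 5 fell, none rose and the median was -0.44, or -0.18 within the lane. Besides MOBP these were NTRK2, NRCAM, GABRA5 and CALB1. NTRK2, which encodes the BDNF receptor TrkB, had 31305 normalized counts in scramble, 8774 in shSOX2 and 23416 in shTP63. NRCAM, a neuronal adhesion molecule, had 1989, 595 and 2572, and CALB1, a calcium-binding protein of neurons, had 2359, 739 and 2725. GABRA5, a subunit of the GABA-A receptor, had 502, 151 and 161, so that it was as low in shTP63 as in shSOX2. Of 15 genes of neuroendocrine cells and secretory granules, CHGB, RAB3B (2524, 872 and 1671), GAL (5082, 2206 and 5151) and SCG2 (799, 370 and 1989) fell and none rose, with a median of -0.23. Within the lane the median of these 15 was 0.09, so the list as a whole was not lower than in shTP63. Defining markers of neuroendocrine cells were low: SYP had 263 normalized counts in scramble and 254 in shSOX2, INSM1 had 60 and 63, NEUROD1 had 14 and 5, and CHGA had 4 and 1. Of 35 potassium channel genes 6 fell and KCNK7 rose. KCNH2 (1063 to 414), KCNJ2 (1651 to 691) and KCNJ4 (666 to 325, with 524 in shTP63) were among the fallen. In bulk RNA, fewer cells of a kind and less RNA in each cell cannot be told apart.

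**Figure D3:**
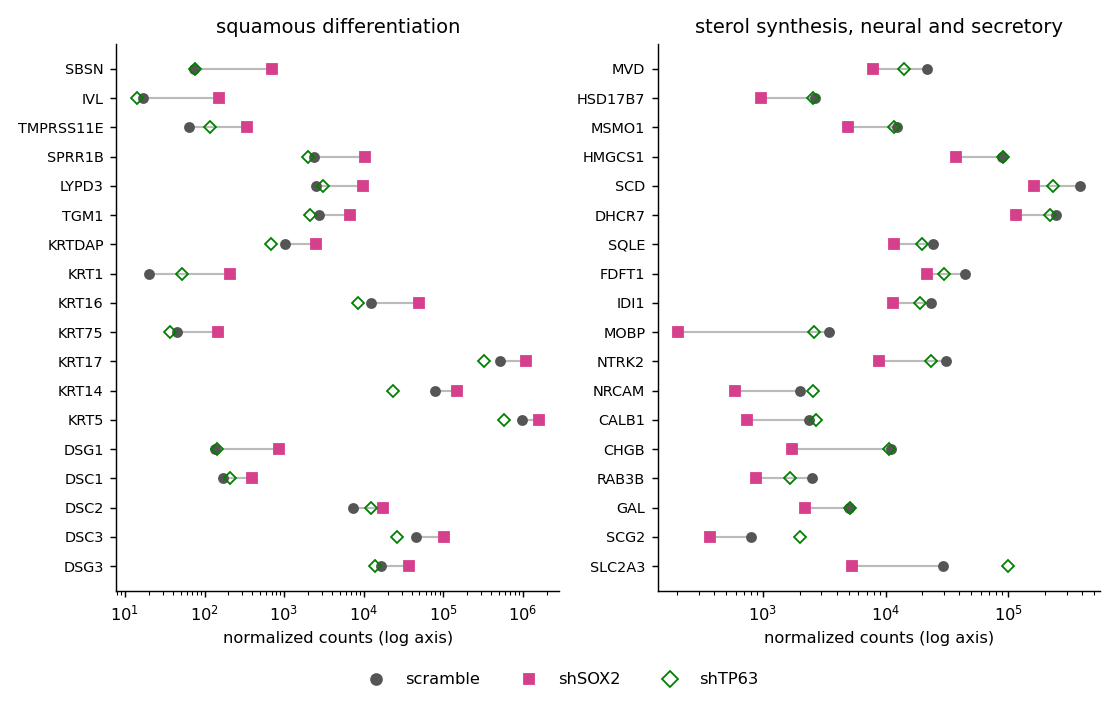
Normalized counts (x axis, log axis) in the scramble (grey circles), shSOX2 (pink squares) and shTP63 (open green diamonds) libraries of KYSE140 for 18 differentiation, keratin and desmosome genes (left) and 18 sterol, neural, secretory and transporter genes (right), 1 library each with no error bar. The genes were picked after their values were seen. Among them the shSOX2 squares are the highest of the 3 libraries in every row on the left and the lowest in every row on the right. Over the measured lists shSOX2 was the highest for 18 of 25 cornified envelope genes, and the lowest for 25 of 32 sterol and 6 of 15 secretory genes. KRT5 and KRT14 on the left did not reach 2-fold.

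Growth factor and developmental pathways had few changes. Of 13 measured genes of the FGF pathway FGFR4 fell (3754 to 1486, with 2853 in shTP63) and FGF1 rose (39 to 126). In the Notch list HES6, a repressor of HES1, fell (1774 to 630) and HEYL rose (129 to 310) among 20. In the Wnt list NOTUM (879 to 397) and NKD2 (5627 to 2585), both feedback inhibitors, fell among 35, and shTP63 had 621 and 3908. None of 12 EGFR family genes passed. EGFR itself had 96782 normalized counts in scramble, 140523 in shSOX2 and 80150 in shTP63 (log2 fold change 0.54). NRP1, PLXNA2 and SEMA3A, a guidance ligand and its receptors, rose among 33 axon guidance genes and none fell. PLXNA2 had 732, 2270 and 651 normalized counts and NRP1 had 716, 2067 and 1045, and SEMA3A was at 0.59 within the lane. CDH2, the neural cadherin, fell from 1126 to 469. In the imprinted and oncofetal list the non-coding RNA H19 had 111, 902 and 101 normalized counts, 8.15-fold over scramble, and HMGA2, an architectural chromatin factor, had 4454, 9721 and 2945. Of 32 antioxidant genes AKR1C3 fell (7917 to 1905, 3164 in shTP63) and AKR1B10 rose (24 to 167). CASC19, whose record in the annotation used spans the position of CCAT1, which has no record of its own there, had 1976, 800 and 781 normalized counts. It fell upon SOX2 silencing to the level of the shTP63 library, and CCAT1 was not analysed as a gene of its own. TXNRD1 was at -0.56 and TP73 at 0.79.

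Cell cycle genes were mostly a little below scramble. Of 42 S phase genes 34 had a log2 fold change below 0, with a median of -0.19, and TYMS, thymidylate synthase, and DSCC1, which is needed for sister chromatid cohesion, fell. DSCC1 was at -0.61 within the lane. Of 54 G2 and M phase genes 48 were below 0, with a median of -0.23, and G2E3 fell (13109 to 6342). No gene of 20 G1 cyclins, kinases and inhibitors passed. CDK2 went from 9021 to 5456. Replication-dependent histone genes, whose mRNAs normally lack a poly(A) tail, rose in 8 of 15, none fell and the median was 1.01. H1-2 had 1493 normalized counts in scramble, 4311 in shSOX2 and 2134 in shTP63, and H2AC6 had 1431, 3590 and 1629. Within the lane 2 of them passed and the median was 0.50. Of 83 cytosolic ribosomal protein genes 75 were above 0, with a median of 0.32, and RPL5 alone passed the threshold, downward. The next lowest member was RPS10, with 1355 and 727. No gene of 82 in oxidative phosphorylation and none of 35 in the proteasome passed, and MRPL15 (2913 to 920), MRPL16 and MRPL19 (5155 to 2568, with 5026 in shTP63) fell among 80 mitochondrial ribosomal protein genes. All 21 measured mitochondrial-encoded genes were above 0, with a median of 0.42, or 0.22 within the lane.

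The remaining lists held scattered members that passed, where 2.57% of all measured genes fell and 2.22% rose. Of 230 solute carrier genes 11 fell and 4 rose. Apart from SLC2A3, SLC35A3, a Golgi transporter of UDP-N-acetylglucosamine, fell (4418 to 1779), as did the zinc transporter gene SLC30A5 (4152 to 2032), and the zinc importer gene SLC39A2 rose (193 to 726). ASNS, asparagine synthetase and a target of ATF4, was the only gene to fall among 31 of the ATF4 and unfolded protein response, from 9163 to 3565 with 10023 in shTP63, and the median of that list was -0.07, or 0.08 within the lane. HSP90AA1, the stress-inducible HSP90 chaperone, fell from 95241 to 46489 with 88301 in shTP63, and its TE5 levels were 199441 and 103156. Of 28 p53 response genes BTG2 rose (4657 to 10326) and GADD45A fell (5035 to 2497). In the BMP and TGF-beta list of 32 genes, the co-receptor gene TGFBR3 rose (1226 to 2571) and the ligand gene TGFB2 fell (611 to 301, with 579 in shTP63). IER3, an immediate early gene of growth factor signaling, had 43901 normalized counts in scramble, 20192 in shSOX2 and 29442 in shTP63. Of 30 genes of the BCL2 family and of cell death, CASP1 (85 to 189) and BMF (1158 to 2544) rose. BMF had 2089 in shTP63, which left 0.28 within the lane, and it was at 0.70 over scramble with flanked transcripts counted. PCDH19, a cell adhesion molecule of the nervous system, fell from 1223 to 298 with 1965 in shTP63. In the list of retinoid, alcohol and xenobiotic oxidation CYP4F12 rose (53 to 337, with 114 in shTP63) and UGT1A7 (1380 to 340) and PLAAT4 (375 to 178) fell. Among 389 ZNF genes 7 rose and none fell, and no HOX gene of 28 measured passed.

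The 20 largest decreases with at least 100 counts included, apart from the genes above, SHISA2, TRPM3, CASQ2, MIR4453HG, EPHA8, CSGALNACT1, CACHD1 and COQ2. SHISA2, which holds back Wnt and FGF receptors, had 1950 normalized counts in scramble, 223 in shSOX2 and 1795 in shTP63. The cation channel TRPM3 had 258, 23 and 458. CACHD1 had 1505, 234 and 122 and was thus low in both silenced libraries, as was ADCY5 with 1398, 286 and 244. THEMIS was listed at 152 in scramble, 0 in shSOX2 and 374 in shTP63, and by a floor of 3 counts the silenced library was at least 44-fold lower than scramble. In 7 of the 20 at least 50% of sequence words are shared with other genes, and they are uncertain: CNOT6LP1, NUDT4B, UGT1A3, PEDS1-UBE2V1, STAG3L1, INO80B-WBP1 and FDXACB1. The 20 largest increases included FAM117B, with 0, 120 and 32 normalized counts, at least 30.0-fold higher, the enamel protease MMP20 (4, 149 and 1), the receptors ADGRF4 (29, 300 and 102), GPR39 (42, 291 and 45), BDKRB2 (117, 808 and 48) and PEAR1 (17, 142 and 9), and DNAH6, which was highest in shTP63 (652). Uncertain in the same way were AC091171.1, TEN1, UGT1A10, PMS2CL and SDHAP2, and, among genes of at least 1000 counts, RN7SL2. Other well counted increases were HEG1 (1110, 4105 and 703), CPA4 (925, 3108 and 632), TPRXL (427, 1571 and 552), ALYREF (995, 4726 and 3318) and WDFY3 (591, 2175 and 2273). ALYREF and WDFY3 were high in shTP63 too. Some of these values rest on transcripts that the annotation did not hold: when unassigned transcripts lying between 2 transcripts of 1 gene were counted to it, the log2 fold change went from -2.68 to -0.16 for CSGALNACT1, from -2.42 to -0.23 for COQ2, from -7.26 to -2.07 for THEMIS, from 6.64 to 0.25 for ZBTB47, from 5.79 to 0.80 for RYR2, from 4.83 to 0.84 for TEN1, from 2.88 to 0.90 for PDZD2, from 1.63 to 0.47 for ABL2 and from 3.64 to -0.07 for DNAH6. Within the lane EPHA8 was at -0.73, MIR4453HG at -0.20, PDZD2 at -0.16 and ABL2 at 0.47.

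TE5 cells with scramble and SOX2 shRNA share no library with KYSE140 and were used to see how the genes fared in another line. Per the labels, however, the SOX2 shRNA has the same name in both lines. Effects of that shRNA itself and of less SOX2 therefore cannot be told apart here. There scramble was sequenced in lane 3 and shSOX2 and shTP63 in lane 1, so in TE5 too the lane and the silencing cannot be told apart. Of 14741 genes measured there 262 fell (1.78%) and 204 rose (1.38%). Of the 356 genes that fell in KYSE140, 269 were measured in TE5, and 66 of these fell there too (24.5%), 4 rose and the median was -0.57. Of the 308 that rose, 230 were measured, 27 rose (11.7%), 5 fell and the median was 0.25. Among 12381 genes that did neither in KYSE140 0.945% fell and 0.767% rose in TE5. RPL5 went from 37918 to 17521 in TE5, SLC2A3 from 1797 to 674, MRPL15 from 4542 to 1590, CALB1 from 2277 to 514, and TYMS from 33522 to 5359. The TE5 shTP63 library had 28122 for RPL5, 6732 for SLC2A3, 3917 for MRPL15, 1929 for CALB1 and 11663 for TYMS, each above the SOX2-silenced one. TYMS had still fallen in TE5 shTP63, with a log2 fold change of -1.52 over scramble. In the upward direction H19 went from 266 to 674, HMGA2 from 5217 to 15077, IVL from 644 to 1502, TNC from 259 to 611 and H1-2 from 1038 to 5525. In TE5 shTP63 they had 558, 3947, 918, 80 and 3726, each under the SOX2-silenced library, although H19 and H1-2 were past 2-fold of scramble there as well.

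The sterol block was not lower in TE5: none of the 32 genes passed the threshold there and the median was -0.04. HMGCS1 had 26946 and 33918 normalized counts in TE5 scramble and shSOX2, and SCD had 137316 and 130781. Of 19 genes of the cornified envelope measured in TE5 1 rose and the median was 0.24, and SBSN, SPRR1B and KRTDAP had 59 or fewer normalized counts in both TE5 libraries. Among stratified keratins KRT6A fell in TE5, from 37369 to 5025, where KYSE140 showed no such change, and KRT5 and KRT17 were at 0.21 and 0.18. MOBP, at 35 and 54 normalized counts, and GABRA5, at 0 and 3, were too low in TE5 to compare. The histone list, by contrast, rose in 14 of 22 measured genes in TE5, with a median of 1.35. Histone genes were also high in TE5 shTP63, where H1-2 was at 1.84 over scramble and H2AC6 at 1.83, against 2.41 and 1.74 in TE5 shSOX2. The difference between the lines was not tested, as each has 1 pair of libraries.

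**Figure D4:**
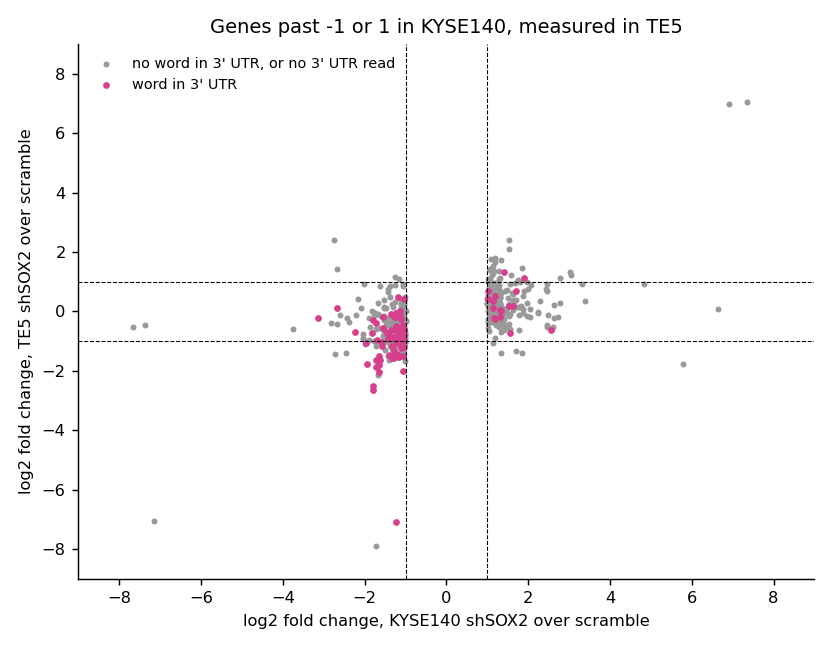
Log2 fold change of shSOX2 over scramble in KYSE140 (x axis) and in TE5 (y axis) for the genes that passed -1 or 1 in KYSE140 and were measured in TE5, 1 point a gene. Pink points carry the 7-base word described in the text in their 3′ UTR and grey points do not or have no 3′ UTR read, and dashed lines mark -1 and 1. Most of the genes on the left lie below 0 in TE5 (218 of 269), and so do 70 of the 74 pink points among them.

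Among the genes that fell, many carried the 7-base word GAAGGAT in the 3′ untranslated region. The word was looked at because an earlier analysis of these data had singled it out, so its presence here is a description. For each gene the 3′ UTR was read from the GENCODE 44 transcript with the highest TPM in the pair of libraries, on the transcript strand only, for 12142 genes. The 8 genes with the word, at least 1000 counts and under 50% of shared sequence that fell most in KYSE140 and fell in TE5 too were CNDP2, RBM47, TYMS, PRPF38A, NEU1, MRPL15, BTBD1 and SNRPE. Sites are printed for 7 of them, all but MRPL15, and for the coding sequence of SOX2, since it holds the same word. They were chosen after their values were seen. Capitals mark the word, and the coordinates (hg19) are those of the word.
CNDP2, chr18:72188300-72188306, plus strand: cactaactgGAAGGATgattttgtc
TYMS, chr18:673017-673023, plus strand: aaggagctcGAAGGATattgtcagt
RBM47, chr4:40425845-40425851, minus strand: ccttctagtGAAGGATtgtcacaga
PRPF38A, chr1:52882423-52882429, plus strand: ctgtatgtgGAAGGATtaagatctc
NEU1, chr6:31826991-31826997, minus strand: atttttaatGAAGGATaatgaatat
BTBD1, chr15:83686220-83686226, minus strand: atttatagaGAAGGATattttgtag
SNRPE, chr1:203839090-203839096, plus strand: aattgttgaGAAGGATacagtttgt
SOX2 coding sequence, chr3:181430511-181430517, plus strand: gctcatgaaGAAGGATaagtacacg

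These genes have various functions, and none fell in KYSE140 shTP63. CNDP2, a cytosolic dipeptidase, had 25343 normalized counts in scramble, 6629 in shSOX2 and 22785 in shTP63, and TYMS had 7045, 2033 and 6736. SNRPE, a core protein of spliceosomal snRNPs, had 5322, 1694 and 5886, and PRPF38A, another splicing factor, 3922, 1182 and 3858. NEU1, the lysosomal sialidase, had 5092, 1547 and 4340, BTBD1 had 6376, 2029 and 6276, and MRPL15, a protein of the mitochondrial ribosome, 2913, 920 and 2863. RBM47, an RNA-binding protein, had 1943, 561 and 3308. In all 8 the silenced library was under 50% of both others. In TE5 the log2 fold changes upon SOX2 silencing ran from -1.51 (MRPL15) to -2.64 (TYMS). TYMS also fell in TE5 upon TP63 silencing, at -1.52.

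The word was present in the 3′ UTR of 9.39% of all genes, of 27.8% of the genes that fell (80 of 288) and of 7.5% of those that rose. Among genes with at least 1000 counts it was in 37.1% of the fallen, against 9.29% of all. Genes with the word had a median log2 fold change of -0.15 upon SOX2 silencing, and 7.02% of them fell, whereas genes without it had a median of 0.02 and 1.89% fell. With 2 or more sites the median was -0.33. In TE5 upon SOX2 silencing the medians were -0.14 with and -0.03 without the word. Upon TP63 silencing in KYSE140 the medians were 0.00 and -0.03, in a comparison in which 1.85% of genes fell and 1.72% rose. The pattern was not limited to 3′ UTRs. The word was in the coding sequence of 16.3% of all these genes, 25.7% of the fallen and 12.5% of the risen, and genes with it in the coding sequence but not in the 3′ UTR had a median of -0.11 both in KYSE140 and in TE5 upon SOX2 silencing, and 0.00 upon TP63 silencing in KYSE140. Genes with the word have longer 3′ UTRs, with a median of 2907 against 876 bases. With the genes cut into 4 groups of equal size by 3′ UTR length, the median with the word was -0.39, -0.18, -0.15 and -0.12 from the shortest to the longest, and without it 0.03, 0.03, 0.03 and -0.01. Of 1 base more, an A after the word went with the largest share of fallen genes on that side, 10.0% of 219 genes with 1 site.

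Of the 80 fallen genes with the word 74 were measured in TE5, where 30 fell (40.5%) and the median was -0.90. Of the 208 fallen genes with a 3′ UTR but no word, 155 were measured in TE5, 30 fell (19.4%) and the median was -0.46. The groups of the preceding paragraphs stood differently to the word. Of 31 sterol and fatty acid genes with a 3′ UTR read, 5 held it, HSD17B7 and SCD among them, and MVD did not. RPL5 did not hold it either. NTRK2 and SHISA2 did, and both were measured in TE5, at -0.73 and -0.23. Whether the word has a part in the decreases was not tested.

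**Figure D5:**
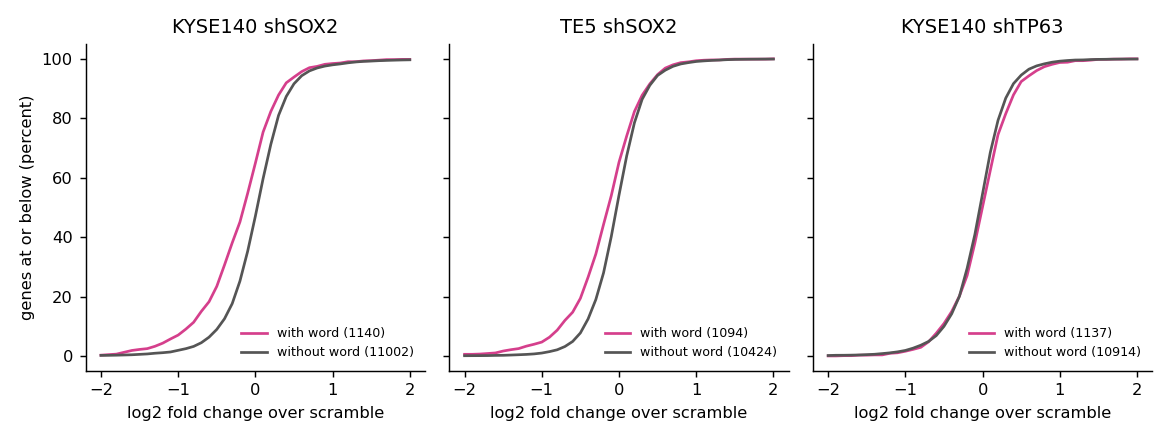
Cumulative share of genes (y axis, percent) at or below each log2 fold change over scramble (x axis) for genes with (pink) and without (grey) the word in the 3′ UTR, in KYSE140 shSOX2, TE5 shSOX2 and KYSE140 shTP63, with gene numbers in the legends. The pink line lies left of the grey line in both shSOX2 panels, with medians of -0.15 against 0.02 in KYSE140, and the lines nearly coincide in the shTP63 panel.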

How the data were processed

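Per transcript of Ensembl version 82 (hg19), the authors deposited an estimated count and a TPM made with kallisto, with 1 file a library. DESeq2 is also named in the submitters' processing notes. The kallisto version is not given in the sources used here. Estimated counts were summed to genes through GENCODE 44 mapped to hg19, which held 182863 of 196354 transcripts and 93.45% to 93.68% of counts per library. The 13491 others were left out. Counts were rounded for the intervals only, since no count test was run, and were scaled by TMM factors (edgeR 4.0.16 in R 4.3.3). The log2 fold change carries a pseudocount of 1. Intervals are exact (Clopper-Pearson) 95% intervals of the ratio of 2 counts and cover counting error only. The script was tested on simulated data. Shared sequence is the share of a gene's 31-base words, 1 in 16 sampled, that occur in other genes, and genes with at least 50% are named as uncertain only. A 3′ UTR may end elsewhere in GENCODE 44 than in the authors' transcripts, since 3375 of 12142 transcripts had the deposited length. Genes named are SOX2, the study-named genes, the 20 largest changes with at least 100 counts and the 15 largest with at least 1000 in each direction, and up to 4 members per list with the largest change. Others, such as those set beside them for contrast, were chosen after their values were seen. A few members counted in the lists are not reported here by name. The part of the data, the gene lists and the word were chosen with earlier results of these data known. Scripts ran in Python 3.11.15 (scipy 1.17.1, pandas 2.3.3, matplotlib 3.10.9). Alternatives were DESeq2 1.42.0 size factors, library totals, a pseudocount of 10, TPM sums, other filters and thresholds, protein-coding genes only, other treatment of unassigned transcripts, and the shTP63 library as control.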

Additional observations from a re-analysis of the deposited data

Results flagged for a closer look

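Of the genes named, 4 with little shared sequence passed the threshold in opposite directions in the 2 lines. The difference was not tested, since each line has 1 library a side. CHGB had a log2 fold change of -2.67 in KYSE140 and 1.41 in TE5, where it had 73 normalized counts in scramble and 196 in shSOX2. MIR4453HG was at -2.76 in KYSE140 (179 to 25) and 2.39 in TE5 (69 to 368). Its KYSE140 shTP63 library had 29, so that the within-lane value was -0.20. MMP10 was at 1.86 in KYSE140 (372 to 1356) and -1.41 in TE5 (650 to 244). RYR2 was at 5.79 in KYSE140 (2 to 175) and -1.77 in TE5 (204 to 59), but its KYSE140 value was 0.80 when flanked unassigned transcripts were counted to their gene.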

How the results depend on the processing

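No paired analysis was possible because each condition has 1 library and the labels carry no replicate numbers. DESeq2 size factors (341 fell, 325 rose), library totals (404 and 276), a pseudocount of 10, TPM sums and protein-coding genes only kept both counts within 1.5 times of 356 and 308, and the log2 fold change of SOX2 was -0.47 with library totals. Against shTP63 the counts were 597 and 545 and SOX2 was at -0.46. With at least 10 counts 1393 fell and 1374 rose, with at least 500 counts 193 and 110 (63.7% of calls downward, against 53.6%), with no filter 4659 and 4760, at a threshold of 0.58 1181 and 936, and with unassigned transcripts kept as features of their own 667 and 695. The 6-base GAAGGA was in 52.8% of fallen genes, but also in 35.1% of all genes and in 37.5% of the risen. For the full word GAAGGAT these shares were 27.8%, 9.39% and 7.5%. At 1000 counts the full word was in 37.1% of fallen genes, against 9.29% of all. Below the TE5 median of all genes lay 218 of the fallen, and above it 171 of the risen. Genes past the threshold were picked for a large change, so rescaling or a larger pseudocount could hardly turn them, and kept directions are no check. Of 151 named genes past the threshold, 896 of 906 alternative values kept their direction. The rest turned against shTP63 (NUDT4B 0.20, UGT1A3 0.01, CACHD1 0.93, DNAH6 -1.07, PDZD2 -0.16, ADCY5 0.23, WDFY3 -0.06, CASC19 0.04, PCDHGA10 -0.24) or with flanked transcripts, an alternative chosen after seeing the data (DNAH6 -0.07). Against shTP63, 196 values of named genes or lists left their interval or changed by more than 1.5 times, and 62 did neither. The causes were not tested.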
